A study of Mus musculus with 16 samples.

Results

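A set of 6 genes that receive little attention in T cell biology marked the effector sort of spleen CD8 T cells in these data: Neb, Ceacam16, Lilrb4a, Cstad, Gm6637 and Gm19765. They are 6 of the 22180 genes measured by a probe set that carries exactly 1 gene symbol, and each has 1 such probe set. They were chosen by measured values of these arrays, a higher signal on effector than on memory arrays with no fixed threshold, so the effector over memory difference is given as a description without a test. The choice did not compare the bone marrow genotypes. It did use the arrays of both, so a low memory KO signal could help a gene to be chosen. The genotype tests are thus not fully independent of the choice. The tests below ask whether the difference between effector and memory cells was equal in both genotypes. They also ask whether the genes moved with checkpoint receptor or cell cycle genes.

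The 4 groups were effector cells of Il4i1 KO chimeras, effector cells of WT chimeras, memory cells of Il4i1 KO chimeras and memory cells of WT chimeras, with 4 samples each. All chimeras were labelled as female and of strain C56BL/6, carried KO or WT bone marrow and received leukaemia cells of Eµ-TCL1 mice, a model of chronic lymphocytic leukaemia (CLL). Cells were sorted from spleen 5 weeks after this transplantation, as CD44+CD127- effector cells and CD44high CD127high memory cells, as the series' design text and the sample titles have it. The growth protocol in the labels instead names the sorted cells as effector and knockout cells. Il4i1 encodes a secreted amino acid oxidase. The genotype is that of the transplanted marrow, and the labels give neither the age of the mice nor the host cells that remained. They also do not state whether replicates came from different mice, so the spread behind each p-value may be partly technical. RNA was measured on 1-colour Affymetrix arrays, values are log2 expression, a difference of 1 is a doubling, and the number of arrays limits the precision.

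CD8 T cells that meet antigen become effector cells, which divide and kill, and a smaller pool persists as memory cells that depend on interleukin-7 through the receptor chain CD127. Persistent antigen, as in leukaemia, adds inhibitory checkpoint receptors such as PD-1, LAG-3 and TIM-3 to the effector programme. The sort showed in the gate gene Il7r, which encodes CD127, with means of 5.69 on effector KO, 4.04 on effector WT, 11.08 on memory KO and 10.71 on memory WT arrays. Il7r rose in effector KO over effector WT (1.65 ± 0.25 SE, limma adjusted p = 0.0183). Of 20 measured memory and stem-like genes 16 fell in effector against memory cells and 2 rose, and of 23 effector and cytotoxic genes 12 rose and 4 fell (averaged over genotypes, where 7.11% of all genes fell and 5.05% rose). Within KO 9 of the effector and cytotoxic genes rose and 4 fell (3.14% and 4.3% of all genes). Within WT 3 rose and 3 fell (0.92% and 2.3%). Their mean was 9.54 in effector and 9.2 in memory KO, but 9.28 in effector and 9.35 in memory WT. The mean of 5 CD8 T cell markers lay between 11.32 and 11.54 on the 16 arrays. Averaged over genotypes, 3 of them were higher in effector cells at a limma adjusted p under 0.05, and 0 were lower. These were Cd3g (0.17 ± 0.05), Cd8a (0.25 ± 0.07) and Cd3e (0.21 ± 0.06). Array effector KO 4 stood apart, with correlations over genes of 0.965 to 0.974 to the other arrays, while the other pairs lay between 0.971 and 0.994. No single-gene probe set covers Il4i1, so its expression does not check the genotype labels here.

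Of the 6 genes, 4 encode proteins. Neb (chr2:52136640-52338798 in GRCm38.p6) encodes nebulin, the giant protein that spans the actin thin filament of skeletal muscle. Ceacam16 (chr7:19852097-19871426) encodes a secreted member of the carcinoembryonic antigen family, known from the tectorial membrane of the inner ear. Lilrb4a (chr10:51490898-51496613) encodes gp49B, an inhibitory receptor of the leukocyte immunoglobulin-like family with tyrosine-based inhibitory motifs, found on myeloid, mast and natural killer (NK) cells and on activated T cells. Cstad (chr2:30595044-30608945) is named for its dependence on T cell activation and on cyclosporin A, a drug that blocks calcineurin. Gm6637 (chr6:122294106-122296950) is annotated as a transcribed pseudogene and Gm19765 (chr7:101547872-101557701) as a long non-coding RNA, and neither has an established role. The Entrez ID of the Gm19765 probe set differs from the gene ID that RefSeq gives under this symbol, so its position rests on the symbol alone.

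The RefSeq promoter table (GRCm38.p6, 250 bases before to 50 after the start) held 2 of the 6 genes, Cstad and Gm19765. Their windows, on the plus strand at chr2:30594794-30595093 and chr7:101547622-101547921, are shown because no window of the other genes was at hand. Capitals mark matches, on either strand, to motif cores of 3 families of T cell transcription factors: GGAAA for NFAT, which calcineurin activates, TGANTCA for AP-1 and TGTGGT for RUNX.
Cstad: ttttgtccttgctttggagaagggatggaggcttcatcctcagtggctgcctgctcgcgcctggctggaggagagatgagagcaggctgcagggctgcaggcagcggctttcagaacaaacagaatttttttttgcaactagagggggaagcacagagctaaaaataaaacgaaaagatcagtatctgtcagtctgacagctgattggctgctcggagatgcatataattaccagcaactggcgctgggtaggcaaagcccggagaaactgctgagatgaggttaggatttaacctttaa
Gm19765: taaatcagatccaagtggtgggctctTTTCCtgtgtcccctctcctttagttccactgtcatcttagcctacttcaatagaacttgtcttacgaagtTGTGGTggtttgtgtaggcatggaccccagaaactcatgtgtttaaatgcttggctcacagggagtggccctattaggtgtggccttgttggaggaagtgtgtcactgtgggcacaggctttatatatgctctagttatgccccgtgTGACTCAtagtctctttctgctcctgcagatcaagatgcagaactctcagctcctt
The Gm19765 window held 1 match to each core, at bases 27, 98 and 245 of the window for NFAT, RUNX and AP-1, and these do not overlap. The Cstad window held 0 matches to these letters. Of 32851 promoter windows of this length, 61.3% held the NFAT core, 16.8% the RUNX core and 7.81% the AP-1 core.

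All 6 genes had a signal above the median of the probe sets on each of the 16 arrays. Averaged over arrays, Lilrb4a had the highest signal, above 98.6% of genes, then Gm6637 (94.8%), Gm19765 (88.2%), Neb (70.6%), Cstad (66.5%) and Ceacam16 (62.1%). These percentages rank probe set signals, which also depend on the probes, and do not compare transcript amounts between genes. In these sorted bulk samples, fewer cells with a transcript and less RNA per cell cannot be told apart. In KO and in WT, 6 of the 6 genes had effector arrays that did not overlap with memory arrays, as the choice of genes implies. Effector arrays lay above memory arrays without overlap for 4.06% of all genes in KO and for 6.41% in WT.

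**Figure D1:**
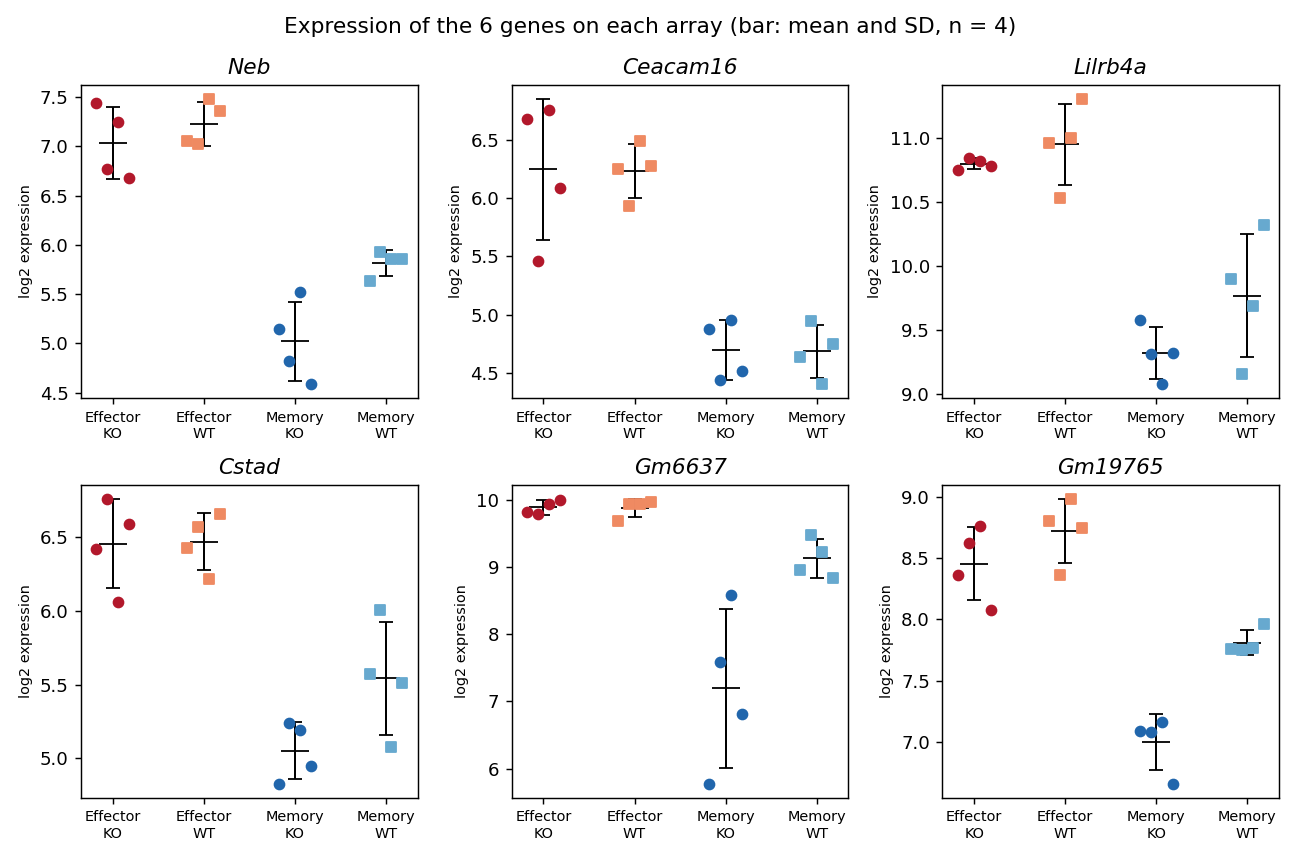
Each panel plots the log2 expression of 1 gene (vertical axis) on each array of the 4 groups (horizontal axis), with the mean and SD of 4 arrays in black. The effector arrays lie above the memory arrays in each panel, Ceacam16 has like levels in KO and WT, and Gm6637 spreads from 5.78 to 8.58 on memory KO arrays.

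Gm6637 had the widest range. Its signal was 9.81, 9.78, 9.94 and 10 on effector KO arrays 1 to 4, and 9.68, 9.93, 9.94 and 9.96 on effector WT arrays. On memory KO arrays it was 5.78, 7.59, 8.58 and 6.82, against 8.96, 9.48, 9.22 and 8.84 on memory WT arrays. The effector groups were thus near equal and tight, while memory KO lay below memory WT without overlap and differed among its own arrays. Memory KO 1 and 4 were the lowest. The difference between memory KO and memory WT was -1.93 ± 0.38 (SE, n = 4 each; means 7.19 and 9.13), with a limma p of 0.000107 that adjusted to 0.0642 over all genes. An exact two-sided permutation test gave 0.0286, the smallest p that 4 against 4 arrays allow. The effector difference between genotypes was 0.00 ± 0.38 (adjusted p = 0.998). Both SEs and the limma p-values rest on 1 spread pooled over the 4 groups, which takes the groups to vary alike. For Gm6637 the SDs were 0.11 in effector KO, 0.13 in effector WT, 1.19 in memory KO and 0.28 in memory WT. The pooled SE is thus too small for its memory difference and too large for its effector difference.

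Gm19765 was at 8.36, 8.62, 8.76 and 8.08 on effector KO arrays, and at 8.80, 8.36, 8.98 and 8.75 on effector WT arrays. Its memory KO values were 7.09, 7.08, 7.16 and 6.66, against 7.76, 7.75, 7.77 and 7.96 in memory WT. Both memory groups were narrow and did not overlap. Memory KO minus memory WT was -0.81 ± 0.16 (adjusted p = 0.062, exact permutation p = 0.0286). In effector cells, where the groups overlapped, the difference was -0.27 ± 0.16 (adjusted p = 0.614).

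Neb, the muscle filament gene, had 7.44, 6.77, 7.25 and 6.68 on effector KO arrays, and 7.06, 7.02, 7.48 and 7.36 on effector WT arrays. In memory KO it had 5.15, 4.82, 5.52 and 4.59, against 5.63, 5.93, 5.86 and 5.86 in memory WT. Memory KO lay below memory WT on each array, by a narrow margin for array 3. The memory difference was -0.80 ± 0.20 (adjusted p = 0.143, exact permutation p = 0.0286) and the effector difference -0.19 ± 0.20 (adjusted p = 0.777).

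Cstad was at 6.42, 6.76, 6.06 and 6.59 on effector KO arrays and at 6.43, 6.57, 6.22 and 6.66 on effector WT arrays. Its memory KO values were 4.83, 5.24, 5.19 and 4.95, against 5.57, 6.01, 5.08 and 5.51 in memory WT. Array memory WT 3 lay among the memory KO arrays, and the other 3 lay above them. The memory difference was -0.49 ± 0.18 (adjusted p = 0.321, exact permutation p = 0.0857), and the effector difference was -0.01 ± 0.18 (adjusted p = 0.99).

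Lilrb4a, the inhibitory receptor gene, had the highest signal and a narrow effector KO group, with 10.75, 10.84, 10.82 and 10.78 there and 10.96, 10.53, 11 and 11.30 in effector WT. In memory KO it had 9.58, 9.31, 9.08 and 9.32, against 9.90, 9.16, 9.69 and 10.32 in memory WT. The memory groups overlapped through array memory WT 2. The memory difference was -0.45 ± 0.20 (adjusted p = 0.412, exact permutation p = 0.171), and in effector cells the difference was -0.15 ± 0.20 (adjusted p = 0.837).

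Ceacam16 had a difference between genotypes near 0 in both subsets. Its values were 6.68, 5.46, 6.75 and 6.09 in effector KO, and 6.25, 5.93, 6.49 and 6.27 in effector WT. They were 4.88, 4.44, 4.96 and 4.52 in memory KO, against 4.64, 4.95, 4.41 and 4.75 in memory WT. The groups overlapped in both subsets, with differences of 0.01 ± 0.23 each (adjusted p = 0.993 in effector and 0.989 in memory cells). Their intervals of -0.48 to 0.50 (95%, unadjusted) give the size of difference these arrays could not resolve. The memory signal of Ceacam16 was near the median of all probe sets (4.168). Whether a fall in memory KO could show at this level was not tested.

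In effector cells, 0 of the 6 genes passed an adjusted p of 0.05 for KO against WT (limma, Benjamini-Hochberg over all genes), and 0 had an unadjusted p under 0.05. Among all genes 0.0541% passed and 9.32% had such an unadjusted p. KO and WT effector arrays overlapped for each of the 6, whereas KO lay above WT without overlap for 2.71% of all genes and below it for 1.94%. Memory cells gave 0 of 6 past the threshold as well, where 0.113% of all genes passed, but 5 of 6 had an unadjusted p under 0.05, against 11.3% of all genes. The 5 were the genes other than Ceacam16. With the replicate number as a fixed block the count past the threshold was no longer 0, as given below under processing. Memory KO lay below memory WT without overlap for 3 of the 6, Neb, Gm6637 and Gm19765, and for 3.37% of all genes. The median memory difference was -0.64 over the 6 genes and 0.02 over all genes. Array memory KO 3, the highest of its group for Neb, Gm6637 and Gm19765, bears on the threshold: without it these 3 passed (adjusted p = 0.0213, 0.00148 and 0.0247). Without effector KO 4, Gm6637 (adjusted p = 0.0468) and Gm19765 (0.0251) passed.

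Averaged over both subsets, 0 of 6 passed, against 0.194% of all genes, and 4 of 6 had an unadjusted p under 0.05, against 13.9%. Here too the count of 0 changed with the replicate number as a fixed block. Gm19765 was nearest, at -0.54 ± 0.11 (adjusted p = 0.0549), and it passed without effector KO 2, effector KO 3, effector WT 2 or memory KO 3 (adjusted p = 0.0289, 0.0395, 0.0337 and 0.0372). Without memory KO 3, Neb (-0.58, adjusted p = 0.0455) and Gm6637 (-1.20, adjusted p = 0.0139) passed too. Ceacam16 and Gm19765 lie on the chromosome of Il4i1, 25 and 56.7 megabases from it, with average KO differences of 0.01 and -0.54. Whether sequence linked to the targeted locus plays a part was not tested.

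The effector over memory gap was wider in KO than in WT for 5 of the 6 genes, against 49.7% of all genes. For Gm6637 the gap was 2.69 in KO and 0.75 in WT. Neb had 2.02 in KO and 1.41 in WT, Gm19765 1.46 and 0.91, Cstad 1.40 and 0.93, and Lilrb4a 1.48 and 1.18, with KO first. Ceacam16 had 1.55 in both. The test of the difference itself, the KO gap minus the WT gap, passed for 0 of the 6 genes, and for 0.0% of all genes. An unadjusted p under 0.05 was reached by 3 of 6, against 5.84% of all genes, namely Gm6637 (1.94 ± 0.54, adjusted p = 0.837), Neb (0.61 ± 0.28, adjusted p = 0.841) and Gm19765 (0.54 ± 0.22, adjusted p = 0.841).

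An exact permutation of genotype labels within each subset, which assumes no genotype effect in either, gave 0.0151 for the gap difference of Gm6637. The same test gave 0.153 for Neb and 0.179 for Gm19765. The unadjusted 95% intervals of the gap difference were 0.80 to 3.07 for Gm6637, -0.07 to 1.02 for Cstad (0.48 ± 0.26), -0.29 to 0.89 for Lilrb4a (0.30 ± 0.28) and -0.69 to 0.69 for Ceacam16. For Lilrb4a, Cstad and Ceacam16 a gap equal in KO and WT lies inside these intervals, and so do gaps that differ by up to 0.69 or more. Over the leave-one-out fits the gap difference lay between 1.46 and 2.40 for Gm6637. The SE and interval of Gm6637 rest on a spread pooled over groups of unequal SDs, as given above.

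**Figure D2:**
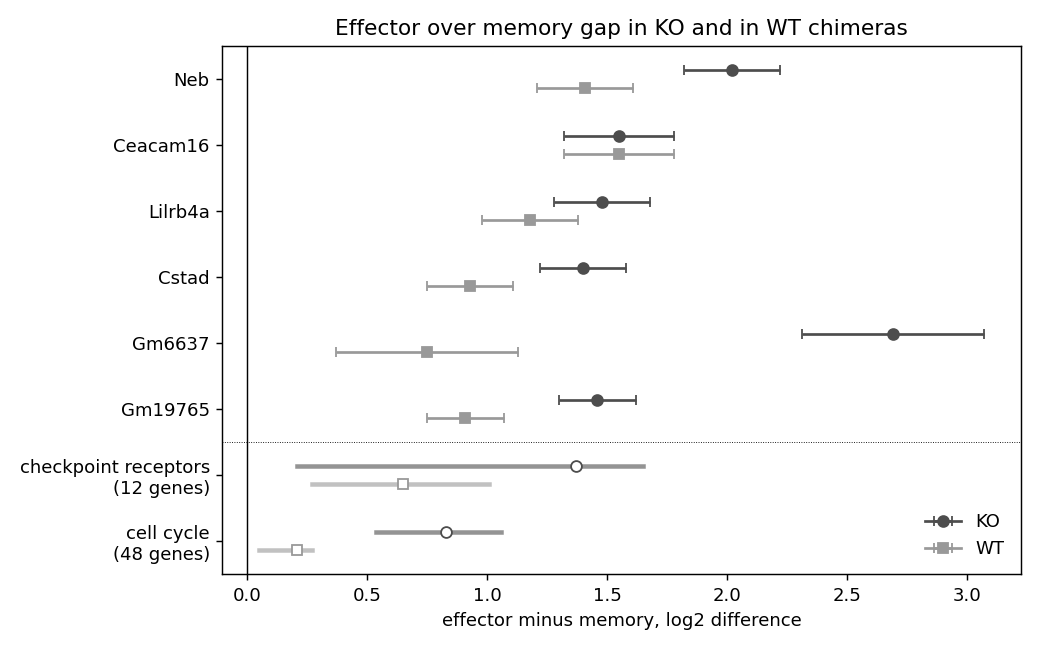
The horizontal axis is the effector minus memory difference in log2 expression. Each of the 6 genes has its KO value (circle) above its WT value (square) with bars of 1 SE. The 2 lowest rows give the median (open symbol) and the quartile range of the checkpoint receptor and cell cycle lists. The gap of Gm6637 is 2.69 in KO and 0.75 in WT, the gaps of Ceacam16 coincide, and both lists have a larger median in KO.

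The checkpoint receptor list holds inhibitory receptors of activated and exhausted T cells together with Entpd1, which is not such a receptor, and 12 of its genes were measured. In effector against memory cells, averaged over genotypes, 9 rose and 1 fell, against 5.05% and 7.11% of all genes. The inhibitory receptor Lag3 rose by 1.45 ± 0.20 (adjusted p = 0.00013), the ectonucleotidase Entpd1 by 1.30 ± 0.18 and the receptor Cd200r1 by 1.51 ± 0.23. Btla fell by 0.76 ± 0.12 (adjusted p = 0.000457). Within KO 7 rose and 1 fell (3.14% and 4.3% of all genes), and within WT 1 rose, Cd200r1, and 0 fell (0.92% and 2.3% of all genes). The median gap was 1.37 in KO and 0.65 in WT, and 9 of 12 genes had the wider gap in KO, against 49.7% of all genes. The gap difference passed for 0 of 12, and 2 had an unadjusted p under 0.05.

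Cell cycle genes, 48 measured, had smaller gaps than the 6 genes. Their median gap was 0.83 in KO and 0.21 in WT, and 47 of 48 had the wider gap in KO, against 49.7% of all genes. In KO 23 rose in effector against memory cells, among them the centromere gene Cenpa (1.1 ± 0.22, adjusted p = 0.00617), the spindle gene Hmmr (1.36 ± 0.28) and the proliferation marker Mki67 (1.06 ± 0.23). In WT 0 passed, with 1 at an unadjusted p under 0.05, and for the gap difference 0 passed, with 15 at an unadjusted p under 0.05. Averaged over genotypes 19 rose. This count was 34 without memory KO 3, and 11 or 12 without any 1 of effector KO 1 or 3, effector WT 1, 3 or 4, memory KO 1 or 4, or memory WT 1 or 4.

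The median gap of the 6 genes, 1.51 in KO and 1.05 in WT, lay above that of both lists in each genotype, in a contrast these genes were chosen on. A wide WT gap of 1.55 for Ceacam16 and of 1.41 for Neb stood beside a cell cycle gap whose upper quartile in WT was 0.27.

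In memory cells most list genes, like 5 of the 6 genes, had negative KO against WT differences that did not pass the threshold. Among all genes 45.2% had a value below 0, 11.3% had an unadjusted p under 0.05, and the median was 0.02. Of the checkpoint genes, 8 of 12 had a value below 0 and 0 passed, with 9 at an unadjusted p under 0.05 and a median of -1.24. The 9 include Lair1, which was higher in memory KO (0.63 ± 0.27). All 48 cell cycle genes had a value below 0 and 0 passed, with 37 at an unadjusted p under 0.05 and a median of -0.77. Without memory KO 3, 6 checkpoint and 26 cell cycle genes passed, and without effector KO 4, 4 checkpoint genes did. Without memory KO 2, 2 checkpoint genes passed, and 1 did without effector KO 2 or without memory WT 4. The mean of the cell cycle list was 6.61, 7.27, 7.81 and 6.52 on memory KO arrays 1 to 4 and lay between 7.59 and 7.88 on memory WT arrays. The checkpoint mean was 6.82, 7.42, 7.35 and 6.85 in memory KO and 7.91 to 8.23 in memory WT.

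Array by array, Gm6637 was the gene whose memory values passed the test of a relation with the lists. Of 24 relations, between each gene and each list within the 8 effector or the 8 memory arrays, 2 had an adjusted p under 0.05, both of Gm6637 in memory cells. With the cell cycle list its Pearson r was 0.95 (exact permutation p = 0.00238, adjusted p = 0.0286) and its Spearman rho 0.90 (p = 0.00456, adjusted p = 0.0548), and r was 0.90 without the 2 arrays farthest from the median of the list. With the checkpoint list r was 0.93 (exact permutation p = 0.000372, adjusted p = 0.00893) and rho 0.95 (p = 0.00114, adjusted p = 0.0274), with r at 0.84 without the 2 farthest arrays. The checkpoint means of memory KO and memory WT arrays did not overlap, so this r holds the genotype difference. With 4 arrays a group, values within each are of low precision and are given below as a description. The cell cycle means overlapped only through memory KO 3 (7.81, against 7.59 to 7.88 in memory WT). The cell cycle r thus holds much of the genotype difference too, and the permutation exchanged arrays between genotypes. The count of 2 relations fell to 0 without memory WT 1, 2 or 4, and to 1 without memory KO 2 or 4.

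The deviations from the 4 group means, taken over 16 arrays, leave the genotype and subset differences out. For Gm6637 they gave r = 0.76 with the cell cycle list (exact permutation p within groups = 0.101, adjusted p = 0.222) and r = 0.52 with the checkpoint list (p = 0.121). None of these 12 relations passed, while Lilrb4a with the cell cycle list had an unadjusted permutation p of 0.0297 at r = -0.35. In effector cells Gm6637 did not track the cell cycle list (r = -0.39, rho = -0.29, exact permutation p = 0.345 and 0.501). Within single groups of 4 arrays, without a test, its r with the cell cycle list was 0.91 in memory KO and 0.88 in memory WT. In effector KO it was -0.46 and in effector WT -0.99. With the checkpoint list the values were 0.85 in memory KO, 0.9 in memory WT, -0.5 in effector KO and 0.6 in effector WT.

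For the other 5 genes no relation passed, and their difference from Gm6637 was not tested. With the checkpoint list in memory cells, where r again holds the genotype difference, 3 of them lay just short of the threshold (adjusted p = 0.0516 each). These were Gm19765 at r = 0.90 (exact permutation p = 0.00739; rho = 0.64, p = 0.0962), Neb at r = 0.84 (p = 0.0102; rho = 0.79, p = 0.0279) and Cstad at r = 0.83 (p = 0.0109; rho = 0.86, p = 0.0107). In effector cells Gm19765 had r = 0.72 with this list (exact permutation p = 0.0434, adjusted p = 0.116; rho = 0.31, p = 0.45), and -0.16 without the 2 farthest arrays. Within memory KO and within memory WT, 4 arrays each and without a test, r with this list was 0.57 and -0.62 for Gm19765. The values were 0.34 and 0.43 for Neb, 0.98 and 0.75 for Cstad, -0.7 and -0.94 for Lilrb4a, and -0.09 and 0.65 for Ceacam16.

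Neb with the cell cycle list in memory cells had r = 0.83 (exact permutation p = 0.0129, adjusted p = 0.0516; rho = 0.81, p = 0.0218), and in effector cells r = 0.69 (p = 0.0335, adjusted p = 0.101; rho = 0.45, p = 0.267). Gm19765 with the same list in memory cells had r = 0.78 (exact permutation p = 0.0224, adjusted p = 0.0769; rho = 0.62, p = 0.115), which was 0.47 without the 2 farthest arrays. Cstad had r = 0.69 there (exact permutation p = 0.0564, adjusted p = 0.135; rho = 0.60, p = 0.132) and 0.31 without them. Lilrb4a had r = 0.11 in memory cells (exact permutation p = 0.809, adjusted p = 0.845; rho = -0.19, p = 0.665), and Ceacam16 had r = 0.16 (exact permutation p = 0.662, adjusted p = 0.821; rho = 0.24, p = 0.582). With 8 arrays each, these values have a low precision, and those of memory cells pool KO and WT arrays, whose cell cycle means differed. Within memory KO and within memory WT, without a test, r with this list was 0.67 and -0.96 for Gm19765. The values were -0.81 and -0.94 for Lilrb4a, 0.69 and 0.09 for Neb, 0.84 and 0.25 for Cstad, and 0.33 and 0.06 for Ceacam16.

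**Figure D3:**
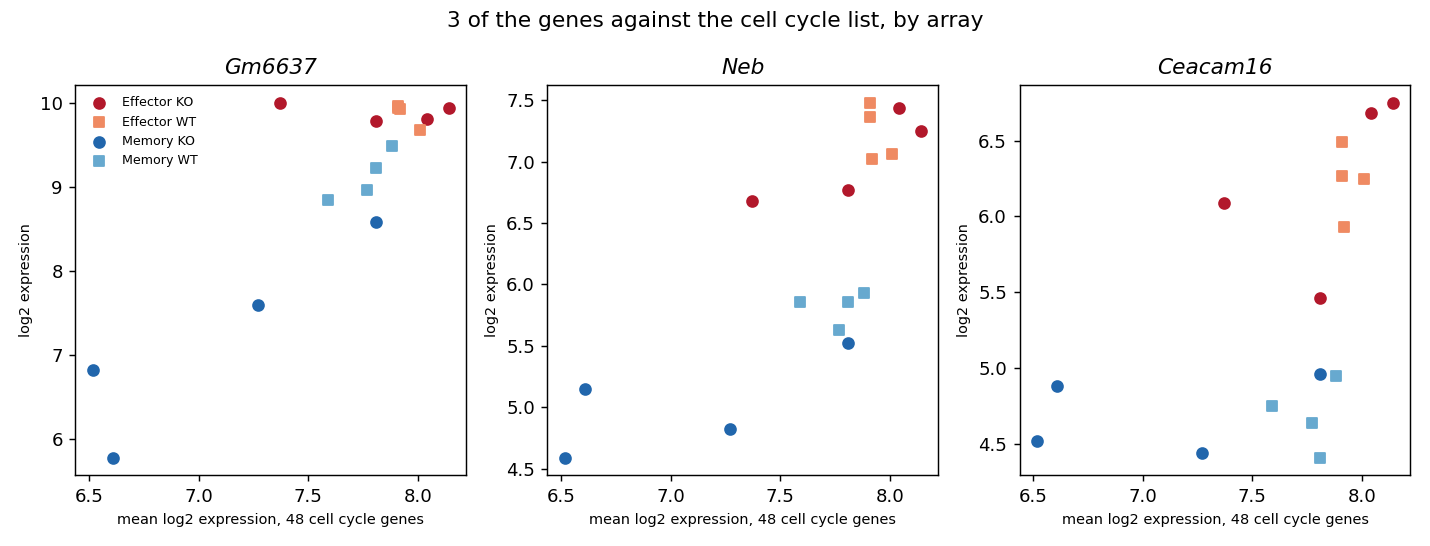
Each point is 1 array, with the mean log2 expression of 48 cell cycle genes on the horizontal axis and the log2 expression of Gm6637, Neb or Ceacam16 on the vertical axis. In Gm6637 the 8 memory arrays, KO and WT together, line up with the list (r = 0.95), and in Ceacam16 they do not (r = 0.16). Effector and memory arrays with like cell cycle means differ in each panel, in a contrast these genes were chosen on.

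By likeness over the 16 arrays, among 11463 named genes above the median signal, Gm6637 was nearest to Hmmr, which encodes a spindle and hyaluronan-binding protein (Pearson r = 0.98, followed by Etfb at 0.97 and Leprot at 0.96). After each subset's mean was taken off, Hmmr stayed nearest (0.98), followed by the mitotic phosphatase gene Cdkn3 (0.95) and the formin gene Diaph3 (0.94). Within the 8 memory arrays r with Hmmr was 0.99 (rho 0.95), and within the 8 effector arrays, where both genes were nearly flat, it was -0.09 (rho 0.14). Hmmr was at 4.46, 5.75, 6.39 and 4.95 on memory KO arrays and at 6.40, 6.66, 6.68 and 6.36 on memory WT arrays, so memory KO 1 and 4 were low in both genes. A pseudogene can share sequence with the gene it derives from, and whether the Gm6637 probe set reads transcripts of another gene was not tested.

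The neighbours of Gm6637 are Klrg1, 11273 bases before it, and M6pr, 11770 bases after it. Klrg1, a lectin-like receptor of terminally differentiated effector cells, rose in effector against memory cells (averaged 0.77 ± 0.19, adjusted p = 0.0137). Its means were 9.28 in effector KO, 8.74 in effector WT, 8.34 in memory KO and 8.13 in memory WT. Across the 8 memory arrays its r with Gm6637 was -0.40, and across the 8 effector arrays 0.06, and in memory cells its KO against WT difference was 0.21 ± 0.27 (adjusted p = 0.836), against -1.93 for Gm6637. M6pr, a lysosomal enzyme receptor gene, had an averaged effector over memory difference of 0.14 ± 0.07 (adjusted p = 0.259).

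**Figure D4:**
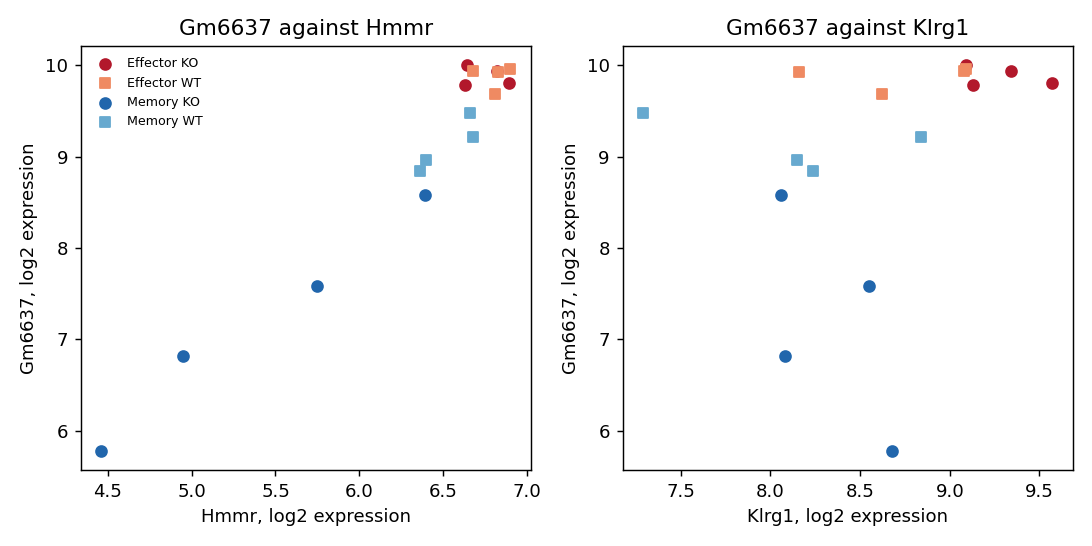
Each point is 1 array, with the log2 expression of Gm6637 on the vertical axis and that of Hmmr (left) or of its chromosomal neighbour Klrg1 (right) on the horizontal axis. The 8 memory arrays fall along a line with Hmmr (r = 0.99) and not with Klrg1 (r = -0.40).

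The other genes resembled genes of several functions. Gm19765 was nearest to Dnajc9, a histone chaperone gene, both as the arrays stand (r = 0.97) and with subset means taken off (0.94). Neb was nearest to the diacylglycerol kinase gene Dgkz (0.97) and the long non-coding RNA Morrbid (0.96), and with subset means off to Cibar1 (0.89). Lilrb4a was nearest to the interleukin-12 receptor gene Il12rb1 (0.96), and with subset means off to G2e3 (0.81). Cstad was nearest to the phospholipase gene Pld2 (0.94) and the granule release gene Unc13d (0.93), and with subset means off to Slc35b2 (0.86). Ceacam16 was nearest to Sipa1 (0.93) and the costimulatory receptor gene Cd27 (0.92), and with subset means off its best match was weaker (Ubn2, 0.75). These are the highest of 11463 correlations for each gene over 16 arrays and are given as a description. Those on the arrays as they stand hold the effector over memory difference on which the 6 genes were chosen. Among the 6 genes, the closest pair with subset means off was Neb and Gm19765 (r = 0.82), while Ceacam16 and Cstad were at -0.24.

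Gene families or pathways were examined for the 4 protein-coding genes. Of 20 other measured genes of the Ceacam and Psg family, 0 passed in either direction for effector against memory cells averaged, with 1 at an unadjusted p under 0.05, and the nearest family gene, Ceacam19, 4316 bases from Ceacam16, had means from 3.36 to 3.54 in the 4 groups. The predicted gene Gm19345 overlaps Ceacam16 and had means of 4.22 to 4.52. Bcl3, an NF-kB regulator gene 29273 bases before Ceacam16, rose in effector against memory cells (0.55 ± 0.15, adjusted p = 0.0266). Of 6 other genes measured, from a list of 18 paired and leukocyte immunoglobulin-like receptors, 0 rose and 2 fell, Pilra (-0.59 ± 0.12, adjusted p = 0.00432) and Pirb (-0.61 ± 0.18, adjusted p = 0.0377), both inhibitory receptors of myeloid cells. The nearest relative, Lilr4b, is read here only by a probe set shared with Lilrb4a, which was higher on effector than on memory arrays in both genotypes.

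Of 30 other thin filament genes, 1 rose and 1 fell. The pointed-end capping gene Tmod1 rose by 0.37 ± 0.10 (adjusted p = 0.0245), and Nebl, the nebulin relative of heart muscle, was lower by a log2 difference of -0.22 ± 0.07 (adjusted p = 0.0338), on a signal above the median on 0 of 16 arrays. Of 21 genes of the calcineurin and NFAT pathway, to which Cstad is tied by its name, 2 rose and 1 fell. The NFAT target Egr2 rose by 0.81 ± 0.19 (adjusted p = 0.00891), the factor gene Nfatc1 by 0.29 ± 0.09 (adjusted p = 0.0408), and the calcium sensor gene Stim1 was lower at -0.44 ± 0.09 (adjusted p = 0.00328). These shares stand beside 5.05% higher and 7.11% lower among all genes. In memory KO against memory WT, 0 genes of these 4 families passed.

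Markers of other cells differed between the subsets and between memory KO and memory WT. B and CLL cell markers, 9 measured, had mean levels of 3.67 to 4.04 on effector KO, 3.70 to 3.82 on effector WT, 4.16 to 4.57 on memory KO and 4.69 to 5.39 on memory WT arrays. In memory KO against WT, 9 of 9 had a value below 0 and 1 fell past the threshold. Their part in the memory KO values of the 6 genes was not tested. Lilrb4a is also a gene of myeloid cells, whose 14 measured markers had means of 4.72 to 5.01 on effector KO and 4.81 to 4.98 on effector WT arrays, below 4.99 to 5.94 on memory KO and 5.48 to 5.85 on memory WT arrays except for an overlap of effector KO with memory KO. In memory KO against WT 11 of 14 myeloid markers had a value below 0 (median -0.31) and 0 passed, with 2 at an unadjusted p under 0.05 (limma). Among memory WT arrays 1 to 4 the myeloid mean was 5.67, 5.48, 5.63 and 5.85, the same order as Lilrb4a, and among memory KO arrays it was 5.14, 5.94, 5.44 and 4.99, a different order. The part of myeloid cells in the Lilrb4a values was not tested. Of 4 platelet markers 4 had a value below 0 in memory KO against WT (median -0.48), and 0 passed, with 2 at an unadjusted p under 0.05 (limma). The mean of 6 NK markers was also lower on effector arrays (5.95 to 6.33) than on memory arrays (6.86 to 7.08). In effector against memory cells averaged over genotypes, 4 of them fell, Fcer1g (-1.75 ± 0.10) and Tyrobp (-1.33 ± 0.16) among them. Eomes rose (0.44 ± 0.07, limma adjusted p = 0.000344).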

How the data were processed

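The authors deposited 1 table of log2 expression values for 41345 probe sets on 16 Affymetrix arrays, per the file headers. Base 2 is read from the values, which run from 0.74 to 14.05, and the array normalization is not given in the sources used here. Of these probe sets, 23521 carry 1 gene symbol in the platform annotation, 1814 carry several and 16010 none listed. Those with 1 symbol cover 22180 genes, and the probe set with the highest mean over 16 arrays stood for a gene. Limma 3.58.1 (R 4.3.3) fitted 4 group means over all arrays, with Benjamini-Hochberg adjustment over all genes and a threshold of 0.05, and was tested on simulated data. Exact permutation tests are two-sided, and 4 against 4 arrays cannot go below 0.0286. The genes and gene lists were chosen with earlier results of these data known. Named besides the 6 genes are the 3 most alike by each measure, list genes with the lowest p per comparison, and neighbours in RefSeq. Promoter motifs were chosen with the sequences in view. The labels tie no replicate number to an animal or batch, and 8 of 16 same-numbered pairs correlated over 0.1. The number was used as a block in an alternative alone. Effector and memory arrays of the same genotype could share an animal. For numbers 1 to 4 these pairs correlated at 0.018, 0.116, 0.147 and 0.143 in KO. In WT they correlated at 0.087, 0.239, 0.138 and 0.126. The main tests treat them as unpaired, and whether they are paired is not known. The alternatives were other normalization, filter, moderation, probe set rule, replicate block and left-out arrays.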

Additional observations from a re-analysis of the deposited data

Results flagged for a closer look

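Of the 24 sets of 4 arrays formed by 6 genes and 4 groups, 3 held an array whose distance to its nearest neighbour took up an unusually large part of the range (Dixon's test, which picks out about 1 in 20 such sets by chance). Gm6637 was at 9.68 on effector WT 1, below the other effector WT arrays at 9.93 to 9.96. Gm19765 was at 6.66 on memory KO 4, below the other memory KO arrays at 7.08 to 7.16, and at 7.96 on memory WT 4, above the other memory WT arrays at 7.75 to 7.77.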

How the results depend on the processing

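For KO against WT in memory cells the count of the 6 genes past the threshold was 0, and it was 2 with the replicate number as a fixed block, 1 with trend and robust moderation, and 0 to 3 when 1 array was left out. Over both subsets it was 1 with the replicate block, 1 among genes above the median, and 0 to 3 with 1 array left out. For checkpoint genes in memory cells it was 6 with the replicate block, 1 with genotype and number as a random block, 1 among genes above the median, 1 with only the arrays compared, and 0 to 6 with 1 array left out. For cell cycle genes in memory cells it was 1 with the replicate block and 0 to 26 with 1 array left out, and for effector against memory cells 11 to 34. The count of relations was 6 after quantile normalization, 1 with the list median, 0 with deviations from the group means, and 0 to 3 with 1 array left out. Differences near 0 changed sign: after quantile normalization Cstad in effector cells was 0.01, Ceacam16 in memory cells -0.02 and the Ceacam16 gap difference 0.05. With 1 array left out, effector differences ran from -0.16 to 0.27 for Ceacam16, -0.11 to 0.12 for Cstad and -0.06 to 0.04 for Gm6637, while Ceacam16 ran from -0.08 to 0.10 in memory cells, -0.17 to 0.26 in the gap difference and -0.07 to 0.14 over both subsets. The cause of these changes was not tested. The gap difference was called for 0 of the 6 genes in each fit run. The same-numbered samples correlated at -0.032 to 0.239 in their deviations, over 0.1 in 8 of 16 pairs, and 11 of 16 correlated best with their own number. These pairs include KO against WT pairs, which are of different chimeras. Among effector and memory pairs of the same genotype, all but KO number 1 correlated best with their own number.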

Other observations

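A second probe set that covers Lilrb4a is annotated to both Lilr4b and Lilrb4a, neighbours 4569 bases apart, and was left out of the fits. Its log2 signal was 9.15, 9.42, 9.40 and 9.32 on effector KO arrays and 9.18, 8.80, 9.55 and 9.81 on effector WT arrays. On memory KO arrays it was 8.35, 6.89, 7.32 and 7.63, against 7.64, 7.07, 7.38 and 8.73 on memory WT arrays. The effector arrays were all above the memory arrays in both genotypes, as for the Lilrb4a probe set, and the memory groups overlapped.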
